A study of Mus musculus with 10 samples.

Results

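The genes of the interleukin-1 (IL-1) system and of its inflammasome were followed in microglia purified from the midbrain (Mdb) and the striatum (Str) of untreated mice. The set was given as 9 gene symbols and matched to 9 of the 53715 genes counted in each library. It comprised the cytokines Il1b, Il1a and Il18, the receptor antagonist Il1rn, the decoy receptor Il1r2, the co-receptor Il1rap, and the processing genes Nlrp3, Pycard and Casp1. All groups came from untreated male C57BL/6 mice (C57BL/6 J in the study's methods) aged 3 months, and the cells were collected from perfused brains by papain digestion, a density gradient and magnetic beads against CD11b. CD11b is also carried by monocytes, neutrophils and the macrophages of the brain borders, which the beads do not separate from microglia; the study's methods describe a cytometry check on an aliquot, in which nearly all viable cells had the low CD45 of microglia and a small share the high CD45 of infiltrating myeloid cells. Poly-A RNA was sequenced in bulk with MARS-seq, which reads the 3′ ends of transcripts. The pilot cohort (Exp 1) held 2 midbrain and 2 striatum libraries, and the second cohort (Exp 2) was compared with 2 libraries per region. A further 2 libraries of Exp 2 have a title naming one region and a file name naming the other, and they entered no comparison. The study gives as many mice per experiment as it has libraries per region, so both regions appear to come from the same mice, but the sources do not say which midbrain and striatum libraries share one. The fits did not pair them.

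IL-1β and IL-1α are the agonists of the pathway: both bind the IL-1 receptor, which then recruits the accessory protein encoded by Il1rap and signals through MyD88 and NF-κB. The response is held in check by the antagonist encoded by Il1rn, which occupies the receptor without activating it, and by the receptor encoded by Il1r2, which binds the cytokine but has no signalling domain. IL-1β and IL-18 are made as inactive precursors and are cut by caspase-1 (Casp1) after the sensor NLRP3 has assembled with the adaptor ASC (Pycard). In the brain Il1b, Nlrp3, Pycard and Casp1 belong mostly to microglia and other myeloid cells. Neutrophils and monocytes are also known to carry Il1b, Il1r2 and Il1rn transcripts.

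The total counts of the 8 libraries ranged from 575709 to 8463782, the smallest being striatum library 3 of Exp 2. Levels are given as CPM, the counts relative to the library total after TMM normalization over these 8 libraries. All 14 microglial markers were present in the tested genes, and their summed level ranged from 20076 to 23346 CPM in the 4 midbrain libraries and from 28714 to 35374 CPM in the 4 striatum libraries. In a bulk sample, fewer cells of a type and less RNA per cell cannot be told apart.

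The start sites of 4 genes are shown because they frame the comparisons that follow: Il1b, which differed between regions, beside its neighbour Il1a, which did not pass the test, and Il1r2 and Nlrp3, which moved with Il1b. Il1b lies on the minus strand of chromosome 2 from 129364570 to 129371139 and Il1a on the same strand from 129299610 to 129309972 (GRCm38), with 54.6 kb between them. The sequences are the 250 bases before the RefSeq start site (GRCm38.p6), written 5′ to 3′ on the strand of the gene. Capitals mark matches on either strand to a TATA box (TATAAA), AP-1 (TGANTCA), PU.1 (GAGGAA), C/EBP (TTGCNNAA) or the NF-κB consensus. Windows were found for all 9 genes.
Il1b, chr2:129371140-129371389, minus strand: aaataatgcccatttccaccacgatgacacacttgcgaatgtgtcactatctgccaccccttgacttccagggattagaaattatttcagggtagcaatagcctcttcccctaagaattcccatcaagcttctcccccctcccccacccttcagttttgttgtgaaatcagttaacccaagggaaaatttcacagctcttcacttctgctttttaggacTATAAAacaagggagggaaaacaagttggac
Il1a, chr2:129309973-129310222, minus strand: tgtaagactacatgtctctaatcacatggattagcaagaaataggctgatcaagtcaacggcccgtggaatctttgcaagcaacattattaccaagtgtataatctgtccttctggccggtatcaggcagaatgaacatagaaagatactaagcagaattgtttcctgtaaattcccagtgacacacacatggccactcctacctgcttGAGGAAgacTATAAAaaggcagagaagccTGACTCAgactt
Il1r2, chr1:40085843-40086092, plus strand: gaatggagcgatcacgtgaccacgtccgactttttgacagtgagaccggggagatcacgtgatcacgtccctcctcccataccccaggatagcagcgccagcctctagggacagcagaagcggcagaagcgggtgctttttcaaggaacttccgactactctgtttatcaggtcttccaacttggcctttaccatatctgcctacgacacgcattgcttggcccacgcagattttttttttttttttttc
Nlrp3, chr11:59541319-59541568, plus strand: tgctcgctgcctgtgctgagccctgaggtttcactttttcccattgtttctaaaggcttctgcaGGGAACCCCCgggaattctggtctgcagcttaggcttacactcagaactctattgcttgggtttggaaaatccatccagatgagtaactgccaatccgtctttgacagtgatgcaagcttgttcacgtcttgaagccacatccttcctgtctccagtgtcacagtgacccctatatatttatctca

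Il1b and Il1a each held a TATA box at the usual distance from the start site, at bases 31 to 26 and 32 to 27 upstream. A TATA box on the gene's strand beginning 25 to 35 bases upstream was found in 1.75% of 32851 RefSeq windows, and one anywhere in the window in 12.4%. Il1a also held an AP-1 match at bases 12 to 6 and a PU.1 match at bases 41 to 36, motifs present in 6.75% and 23.3% of windows. RefSeq gives Nlrp3 a second start site within the gene. The window shown for Nlrp3, at the start of the counted gene, held an NF-κB match on the opposite strand at bases 186 to 177 upstream, a motif present in 3.9% of windows, and the window of the second site held no NF-κB match and 3 PU.1 matches. None of the 5 motifs was found in the Il1r2 window, whose start site lies within the longer gene span counted by the authors (chromosome 1, 40074079 to 40125231, plus strand). Such a match describes the letters of the window and shows no binding.

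Among the cytokines, Il1b was higher in the midbrain in both experiments, Il1a did not pass the test in either, and Il18 was lower in every midbrain library than in the striatum libraries of its experiment without passing the test. Il1b stood at 560 and 503 CPM in the midbrain and at 145 and 108 CPM in the striatum of Exp 1. The midbrain libraries of Exp 2 held 2274 and 775 CPM and its striatum libraries 193 and 273 CPM. The regions did not overlap in either experiment, and the 2 midbrain libraries of Exp 2 differed from each other more than those of Exp 1. The log2 fold change (midbrain over striatum) was 2.05 (SE 0.19, adjusted p = 0.0271, limma) in Exp 1 and 2.57 (SE 0.45, adjusted p = 0.0437, limma) in Exp 2. Over both experiments it was 2.33 (SE 0.30, adjusted p = 0.0137, limma). Within an experiment a gene was called at an unadjusted p under 0.01, which 2.64% of genes passed in Exp 1 and 3.47% in Exp 2. The joint fit called 1.06% of genes at an adjusted p under 0.05. Il1b was called in all 3.

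The joint call of Il1b was lost when midbrain library 1 of Exp 1 was left out (adjusted p = 0.0835), or striatum library 1 (0.0986) or striatum library 3 (0.0551) of Exp 2. Between 0 and 3 genes were called over the whole table in those 3 fits, and the adjusted p ranged from 2.69e-10 to 0.771 over all alternatives. The highest came from placing the 2 libraries of unsettled region by their titles. That placement took the Exp 2 change to 1.15 (adjusted p = 0.848, limma), which was not called, whereas placing them by their file names kept the call. With each library of Exp 2 left out the change in Exp 2 ranged from 1.83 (without midbrain library 1) to 3.41 (without midbrain library 3), and it was called in all 4 fits. Il1b shares 25 exonic bases (1.31% of its exonic length) with the antisense gene Il1bos. Reads were counted without strand, but Il1bos itself held at most 18 counts in any of the 8 libraries, against 159 to 10761 for Il1b.

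**Figure D1:**
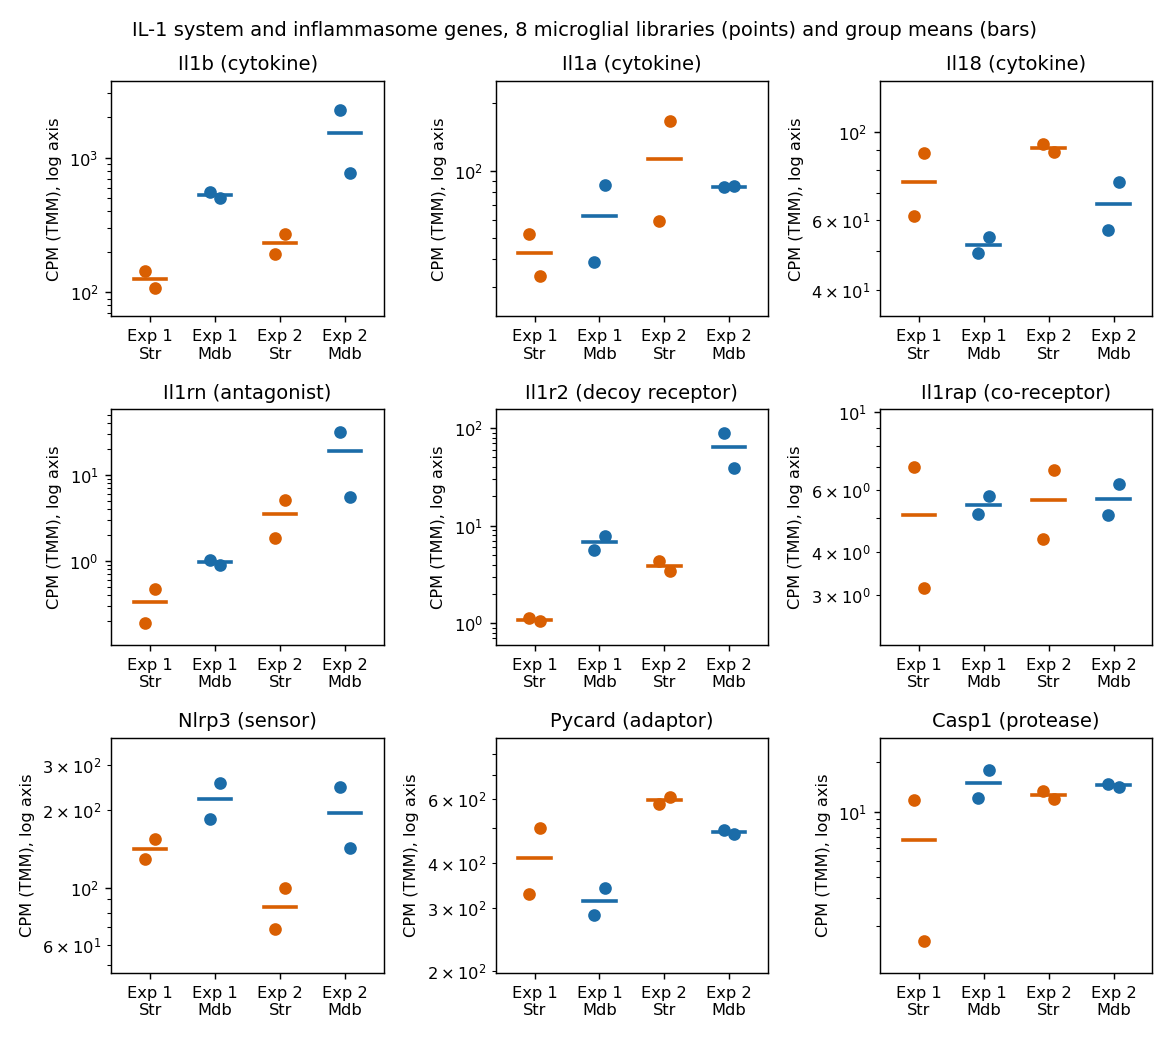
CPM (TMM, log axis) of the 9 genes in the 8 libraries, by experiment and region (Str orange, Mdb blue); points are libraries and bars are the means of 2. Il1b and Il1r2 lie higher in the midbrain in both experiments, with 2274 and 775 CPM of Il1b in the midbrain of Exp 2 against 193 and 273 CPM in its striatum, while Il1a and Il1rap overlap.

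Il1a encodes the agonist that is active without caspase-1 cleavage. It was measured at 38.9 and 86.6 CPM in the midbrain and 51.8 and 33.6 CPM in the striatum of Exp 1. In Exp 2 the midbrain libraries gave 84.7 and 84.9 CPM and the striatum libraries 59.5 and 166 CPM, so that the striatum held both the lowest and the highest value. The regions overlapped in each experiment. The log2 fold change was 0.45 (SE 0.36, adjusted p = 0.638) in Exp 1 and -0.0011 (SE 0.39, adjusted p = 1.00) in Exp 2 (limma), and 0.32 (SE 0.30, adjusted p = 0.664) over both. Its direction in each experiment depended on the libraries kept. Of its exonic length, 11.3% is shared with Gm14023 on the opposite strand, which held 36 to 230 counts per library against 97 to 481 for Il1a. The part of those reads in the Il1a values was not tested.

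Il18 (chromosome 9, 50554827 to 50581840, plus strand), the other cytokine cut by caspase-1, stood at 49.5 and 54.4 CPM in the midbrain and at 61.2 and 88.3 CPM in the striatum of Exp 1. The values of Exp 2 were 56.6 and 74.5 CPM in the midbrain and 92.8 and 89.1 CPM in the striatum. Every midbrain library was thus below every striatum library of its experiment, an order held by 6.06% of genes in both experiments. The log2 fold change was -0.56 (SE 0.24, adjusted p = 0.445) in Exp 1 and -0.51 (SE 0.29, adjusted p = 0.578) in Exp 2 (limma). It was -0.51 (SE 0.17, adjusted p = 0.187) in the joint fit, and none of the 3 passed its threshold. The 14 microglial markers were also below 0 in the joint fit, with a median log2 fold change of -0.62 against 0.044 for all genes. Of these markers 2 were called, against 1.06% of all genes. The part of the markers in the Il18 values was not tested.

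The antagonist gene Il1rn (chromosome 2, 24336853 to 24351494, plus strand) was scarce. In Exp 1 it gave 6 and 5 counts (1.02 and 0.900 CPM) in the midbrain and 1 and 4 counts (0.189 and 0.467 CPM) in the striatum, and the filter on low counts removed it there and in the joint fit. In Exp 2 it gave 150 and 24 counts (31.7 and 5.55 CPM) in the midbrain and 5 and 3 counts (1.81 and 5.14 CPM) in the striatum. The midbrain libraries were above the striatum libraries in both experiments, by a narrow margin in Exp 2, where most of the counts came from a single midbrain library. The ratio of midbrain to striatum counts, scaled to library size, was 2.67 in Exp 1 (95% exact binomial interval 0.855 to 9.81) and 8.03 in Exp 2 (3.98 to 18.9). Both intervals cover counting error only. In Exp 2 the gene passed the filter through its midbrain libraries alone, and the log2 fold change was 2.27 (SE 1.12, adjusted p = 0.509, limma), which was not called. It was called with edgeR (2.80, adjusted p = 0.248), with DESeq2 (2.68, adjusted p = 0.165) and in the limma fit with the replicate block (2.66, adjusted p = 0.00863). Il1rn entered these fits through the same filter, so the calls are descriptions. Without striatum library 1 the value was 1.16 and without striatum library 3 it was 2.79, neither called, and without either midbrain library the filter removed the gene.

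Il1r2, the decoy receptor, had the largest log2 fold change of the members tested in each of the 3 comparisons. It stood at 5.63 and 7.92 CPM in the midbrain of Exp 1 and at 1.13 and 1.05 CPM in the striatum, from 33, 44, 6 and 9 counts. Its levels in Exp 2 were 88.8 and 39.3 CPM in the midbrain (420 and 170 counts) and 4.35 and 3.43 CPM in the striatum (12 and 2 counts). The regions did not overlap in either experiment, and the levels of the midbrain libraries differed more between the experiments than those of the striatum. The log2 fold change was 2.49 (SE 0.58, adjusted p = 0.245) in Exp 1 and 3.73 (SE 0.76, adjusted p = 0.0760) in Exp 2, and both were called (limma). The joint fit gave 3.23 (SE 0.55, adjusted p = 0.0247, limma). Like Il1b, the gene was thus called, with a higher midbrain level, in each experiment, as were 1.18% of the genes tested in both. The ratio of counts, scaled to library size, was 6.23 in Exp 1 (3.55 to 11.7) and 15.6 in Exp 2 (9.19 to 28.6), with exact binomial intervals that again cover counting error only. The joint call was lost without midbrain library 1 (adjusted p = 0.0835, limma) or striatum library 1 (0.0592) of Exp 1, and without striatum library 1 (0.175) or 3 (0.104) of Exp 2, within a range of 8.79e-10 to 0.772 over all alternatives. The change in Exp 2 ranged from 3.16 (without midbrain library 1) to 4.35 with each library left out. The call in Exp 1 was lost without its midbrain library 2 (2.26), and that in Exp 2 with the libraries of unsettled region placed by title (1.42).

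Il1rap (chromosome 16, 26581704 to 26730117, plus strand), which completes the signalling receptor, stood at 5.12 and 5.76 CPM in the midbrain and 6.99 and 3.15 CPM in the striatum of Exp 1. The values of Exp 2 were 5.07 and 6.25 CPM in the midbrain and 4.35 and 6.86 CPM in the striatum. The regions overlapped in both experiments, and the joint log2 fold change was 0.24 (SE 0.36, adjusted p = 0.794, limma). Its direction reversed in some alternatives, so none is given here. A gene on the opposite strand, Gm20319, shares 552 of its exonic bases and held 0 counts in all 8 libraries.

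**Figure D2:**
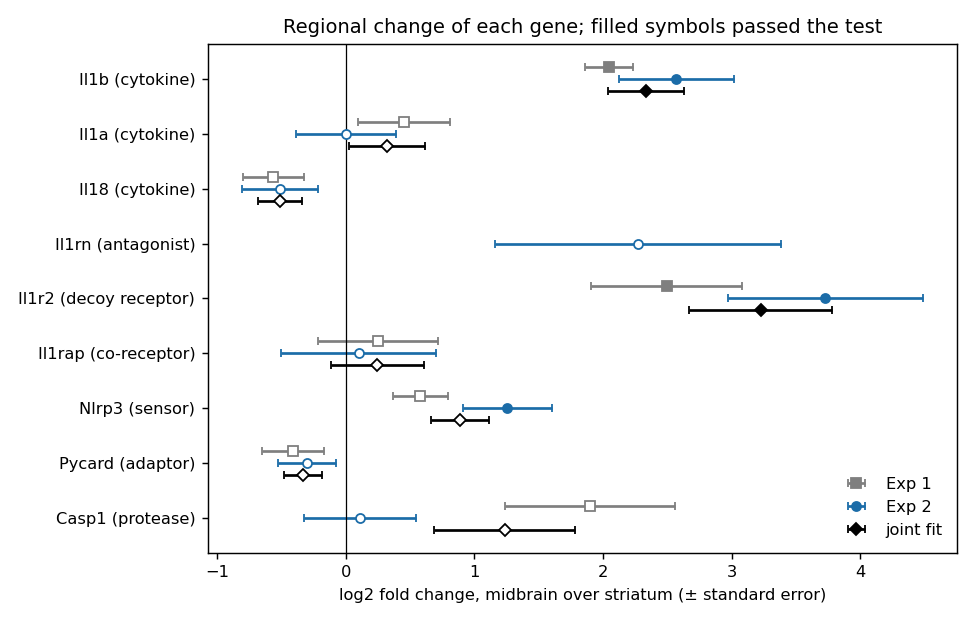
Log2 fold change of midbrain over striatum (x axis, ± standard error) for each gene in Exp 1, Exp 2 and the joint fit; filled symbols passed the test of that comparison. Il1b and Il1r2 passed in all 3 comparisons, at 2.33 and 3.23 in the joint fit, and Nlrp3 passed in Exp 2 at 1.25; Il1rn was tested in Exp 2 alone.

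Of the processing genes, the sensor Nlrp3 was called higher in the midbrain in Exp 2 and the adaptor Pycard and the protease Casp1 were not called. Nlrp3 (chromosome 11, 59541568 to 59566956, plus strand) stood at 185 and 256 CPM in the midbrain and 129 and 155 CPM in the striatum of Exp 1. Exp 2 gave 247 and 142 CPM in the midbrain and 69.3 and 99.4 CPM in the striatum. The regions did not overlap in either experiment. The log2 fold change was 0.58 (SE 0.22, adjusted p = 0.415) in Exp 1, which was not called, and 1.25 (SE 0.35, adjusted p = 0.204) in Exp 2, which was (limma). The joint fit gave 0.89 (SE 0.22, adjusted p = 0.0891, limma), outside its threshold. The call in Exp 2 was lost without striatum library 1 (0.87) or striatum library 3 (1.43) and with the libraries of unsettled region placed by title (0.60). The joint value passed with DESeq2 (adjusted p = 0.0134), with sample quality weights (0.0332) and with those libraries placed by file name (0.0454), within a range of 0.0134 to 0.772 over all alternatives.

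Pycard (chromosome 7, 127989708 to 127993867, minus strand), the adaptor between sensor and caspase, stood at 286 and 341 CPM in the midbrain and 326 and 500 CPM in the striatum of Exp 1. The midbrain libraries of Exp 2, at 493 and 480 CPM, lay below its striatum libraries, at 582 and 610 CPM. The joint log2 fold change was -0.33 (SE 0.15, adjusted p = 0.331, limma). It shares 12.8% of its exonic length with Gm45205, which held 3 to 10 counts per library.

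Casp1 (chromosome 9, 5298517 to 5307265, plus strand), the protease that cuts both cytokine precursors, stood at 12.1 and 17.8 CPM in the midbrain and 11.7 and 1.63 CPM in the striatum of Exp 1. In Exp 2 the values were 14.8 and 14.1 CPM in the midbrain and 13.4 and 11.997 CPM in the striatum. Of these 8 values 7 lie between 11.7 and 17.8 CPM, and striatum library 2 of Exp 1 lies apart with 14 counts in the deepest library. The log2 fold change was 1.90 (SE 0.66, adjusted p = 0.405) in Exp 1 and 0.11 (SE 0.44, adjusted p = 0.953) in Exp 2 (limma). The joint fit gave 1.24 (SE 0.55, adjusted p = 0.327, limma). Without that library the Exp 1 value was 0.31, and without striatum library 1, where the low library alone stood for the striatum, it was 3.05 (adjusted p = 0.000121, limma; 0.000121 to 0.998 over all alternatives).

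By role, the joint fit called 1 of 3 cytokines, 1 of 2 receptor genes and 0 of 3 processing genes (limma). It called 1.06% of all genes, and the antagonist was not tested. All 3 processing genes had an unadjusted p under 0.05 with limma, which 14.6% of all genes had, Pycard being lower in the midbrain. The unadjusted p was 0.147 for Casp1 and 0.0553 for Pycard with edgeR, and 0.150 and 0.0584 with DESeq2. Nlrp3 alone was under 0.05 with both of these tools. Of the processing genes edgeR called 0 and DESeq2 called 1, Nlrp3. Exp 1 called 2 of 8 tested members and Exp 2 called 3 of 9, each of them higher in the midbrain, as were 2.09% and 2.88% of all tested genes. Midbrain libraries lay above striatum libraries in both experiments for 5 of the 9 members (Il1b, Il1r2, Nlrp3, Casp1 and the scarce Il1rn). For Casp1 the margin was 12.1 against 11.7 CPM in Exp 1 and 14.1 against 13.4 CPM in Exp 2. For Il1rn in Exp 2 it was 5.55 against 5.14 CPM, the latter from 3 counts. The order held for 23.1% of the genes of the joint fit in Exp 1, 23.4% in Exp 2 and 9.01% in both. Il1rn is not among the genes of that fit. In the test of whether the regional change differed between the experiments, 0 of 8 members had an adjusted p under 0.05 (limma) and 0 had an unadjusted p under 0.05, which 5.49% of all genes had. Both counts were also 0 with edgeR and with DESeq2. Over the whole table limma called 0 of 14053 genes in this test, so the adjusted count is not particular to the members.

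The balance between IL-1β and its inhibitors was followed as the log2 ratio of counts within a library, which does not depend on library size. The log2 ratio of Il1b to Il1rn was 8.98 and 8.99 in the midbrain and 8.995 and 7.68 in the striatum of Exp 1. It was 6.16 and 7.10 in the midbrain and 6.60 and 5.51 in the striatum of Exp 2, so the regions overlapped in both experiments. The mean difference of midbrain minus striatum was 0.61 (two-sided exact permutation of the region labels inside each experiment, p = 0.333). The log2 ratio of Il1b to Il1r2 was 6.62 and 5.97 in the midbrain and 6.88 and 6.61 in the striatum of Exp 1, and 4.68 and 4.30 in the midbrain and 5.41 and 6.00 in the striatum of Exp 2. The mean difference was -0.83 (same exact test, p = 0.111). Its regions overlapped in Exp 1 and not in Exp 2. The design allows no p below 0.0556 in this test, so no ratio could reach 0.05.

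The ratio of Il1b to its neighbour Il1a was added after their values had been seen. Its log2 was 3.85 and 2.54 in the midbrain and 1.48 and 1.68 in the striatum of Exp 1, and 4.74 and 3.19 in the midbrain and 1.69 and 0.71 in the striatum of Exp 2. Every midbrain library lay above every striatum library. The mean difference was 2.19, with 1.61 in Exp 1 and 2.76 in Exp 2, and the exact permutation p of 0.0556 is the smallest the design can give. As the gene pair was picked for this contrast, the value is a description.

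**Figure D3:**
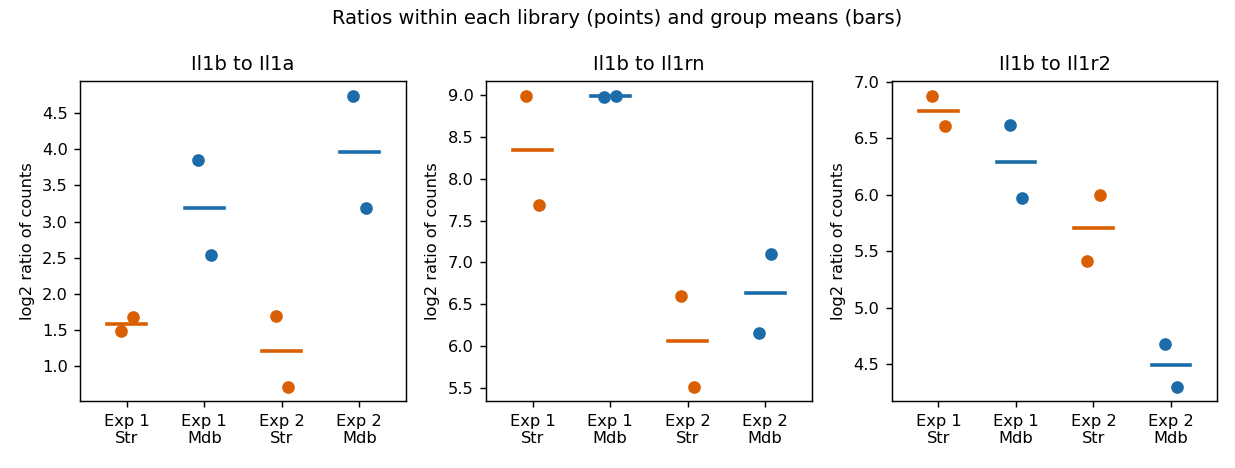
Log2 ratio of Il1b counts to Il1a, Il1rn and Il1r2 counts within each of the 8 libraries (points), with group means (bars), by experiment and region. The Il1b to Il1a ratio was higher in every midbrain library (2.54 to 4.74) than in any striatum library (0.71 to 1.69), while the Il1b to Il1rn ratio overlapped between regions.

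Around these 9 genes, 64 further genes of the pathway were listed by role, of which 50 were tested in the joint fit. In the joint fit 1 of them was called, Cxcl2, higher in the midbrain, against 1.06% of all genes, and the median log2 fold change of the 50 was 0.098 against 0.044 for all genes. Exp 2 called 10 of 52, all higher in the midbrain, against 2.88% of all genes. Exp 1 called 0 of 51 with limma, edgeR and DESeq2, and 7, 5 and 5 had an unadjusted p under 0.05, as had 10.9% of all genes by limma.

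Of the other ligands, Il36a, Il36b, Il36rn and Il1f10 had 0 counts in all 8 libraries, which allows up to 3 counts in each. Il33, the alarmin of the family, was present in every library at 25.7 to 67.4 CPM and had a joint log2 fold change of -0.24 (SE 0.23, adjusted p = 0.678, limma). Il36g held 46 counts in all and was tested in Exp 2 alone, at 2.16 (SE 0.93, adjusted p = 0.450, limma). With 32 and 9 counts in the midbrain there and 2 and 0 in the striatum, it passed the filter through its midbrain libraries alone. Of 9 further receptor genes 6 were tested and 0 were called in the joint fit (limma), with 1 at an unadjusted p under 0.05. With edgeR 0 were called (1 at an unadjusted p under 0.05) and with DESeq2 1 was. Il18rap, the accessory chain of the IL-18 receptor, was called in Exp 2 at 2.73 (SE 0.84, adjusted p = 0.266, limma). It stood there at 23.9 and 13.2 CPM in the midbrain and at 5.08 CPM and 0 in the striatum, and its joint value was 2.25 (SE 0.61, adjusted p = 0.111, limma). Sigirr, an inhibitory member of the receptor family, had a joint value of 0.87 (SE 0.42, adjusted p = 0.368, limma).

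Of 20 other inflammasome genes 17 were tested, and 0 were called in the joint fit by limma, edgeR or DESeq2 (4, 5 and 5 at an unadjusted p under 0.05), with a median log2 fold change of -0.051. The sensor Nlrc4 was called in Exp 2 at 2.38 (SE 0.76, adjusted p = 0.279, limma), with 9.72 and 11.1 CPM in the midbrain and 3.26 CPM and 0 in the striatum. Mefv, which encodes the sensor pyrin, had the largest joint value of the list at 1.67 (SE 0.98, adjusted p = 0.469, limma), and 272 of its 355 counts came from midbrain library 1 of Exp 2. Of 16 signalling genes from Myd88 to Rela 15 were tested and 0 were called by limma, edgeR or DESeq2 (1, 1 and 0 at an unadjusted p under 0.05), with a median of -0.0084. Their widest values were 0.56 (SE 0.37) for Irak3, a brake on the pathway, and 0.48 (SE 0.27) for Map3k7, which encodes the kinase TAK1. Prtn3, a neutrophil serine protease able to cut the IL-1β precursor outside the inflammasome, was called in Exp 2 at 3.55 (SE 0.78, adjusted p = 0.102, limma). It stood there at 14.6 and 22.9 CPM in the midbrain and 2.18 CPM and 0 in the striatum.

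Of 10 genes that IL-1 and NF-κB are known to induce, Exp 2 called 7, all higher in the midbrain, against 2.88% of all genes: the chemokines Cxcl1, Cxcl2 and Ccl2, the cytokine Tnf, the prostaglandin synthase Ptgs2 and the NF-κB regulators Nfkbia and Nfkbiz. Ptgs2 gave 62 and 43 counts in the midbrain and 3 and 0 in the striatum of Exp 2, and so passed the filter there through its midbrain libraries alone. Exp 1 called 0 of the 10 with limma, edgeR and DESeq2 (3, 1 and 0 at an unadjusted p under 0.05). The median log2 fold change of the list was 0.83 in the joint fit, from 0.43 in Exp 1 and 1.26 in Exp 2. Cxcl2, a neutrophil attractant, stood at 498 and 676 CPM in the midbrain and 94.9 and 390 CPM in the striatum of Exp 1. Exp 2 gave 2764 and 1157 CPM in the midbrain and 112 and 72.0 CPM in the striatum. Its regions did not overlap in either experiment, and the joint log2 fold change was 2.70 (SE 0.55, adjusted p = 0.0420, limma).

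Ccl2, a monocyte attractant, had a log2 fold change of 0.94 (SE 0.45, adjusted p = 0.477) in Exp 1 and 2.85 (SE 0.28, adjusted p = 0.00136) in Exp 2 (limma). Its Exp 1 values were 477 and 679 CPM in the midbrain and 164 and 506 CPM in the striatum. In Exp 2 they were 1052 and 1499 CPM in the midbrain and 165 and 185 CPM in the striatum. Striatum library 2 was thus the high one of its pair in Exp 1, for Ccl2 as for Cxcl2. The test of the difference between the experiments gave an adjusted p of 0.860 for each of Ccl2, Cxcl2 and Cxcl1 (limma). These 3 of the 10 had an unadjusted p under 0.05, which 5.49% of all genes had. At an adjusted p under 0.05 that test called 0 of 14053 genes. Tnf had a log2 fold change of 0.45 (SE 0.21) in Exp 1 and of 1.38 (SE 0.36, adjusted p = 0.172, limma) in Exp 2, where it was called, while Il6 and Icam1 lay at -0.067 and -0.013 in the joint fit.

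The counts of this list rested on few libraries. Without striatum library 2 of Exp 1, the count in that experiment went from 0 to 8 of 10, with 610 of 14452 genes called. In Exp 2 the count fell from 7 without striatum library 1 and without striatum library 3, fits that leave 1 striatum library. With the libraries of unsettled region placed by title it was 1, where 132 of 13254 genes were called. With them placed by file name it was 5, where 692 of 13254 genes were called. The summed level of 12 immediate early and stress genes, which cell isolation can raise, was 18970 and 22524 CPM in the midbrain and 14059 and 23049 CPM in the striatum of Exp 1. It was 23940 and 21872 CPM in the midbrain and 12152 and 11663 CPM in the striatum of Exp 2. Against 2.88% of all genes, 6 of the 12 were called higher in the midbrain there. The part of these genes in the values of Il1b, of Nlrp3 and of the induced genes was not tested.

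**Figure D4:**
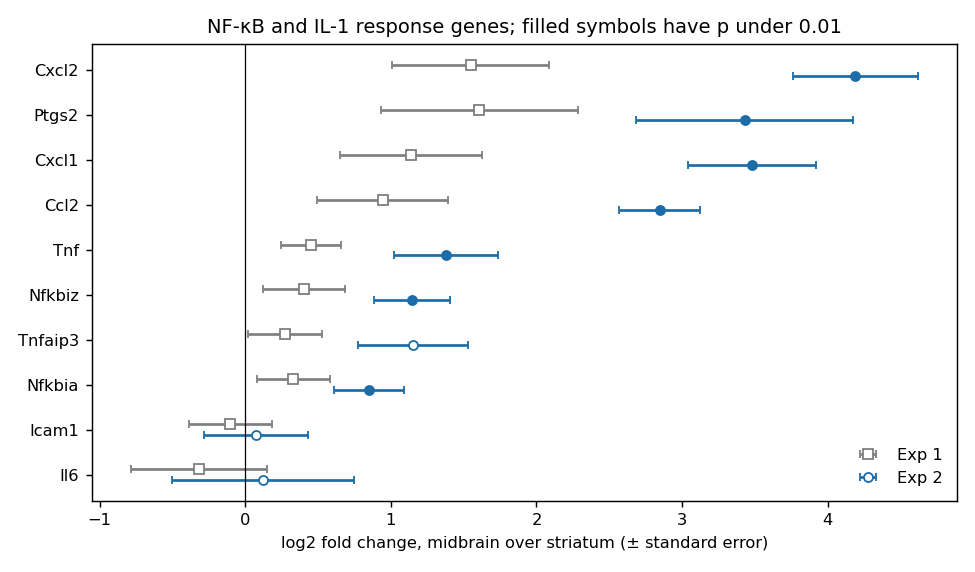
Log2 fold change of midbrain over striatum (x axis, ± standard error) of 10 genes induced by IL-1 and NF-κB, in Exp 1 (grey) and Exp 2 (blue); filled symbols have an unadjusted p under 0.01. None of the 10 is filled in Exp 1 and 7 are filled in Exp 2, with Cxcl2 the furthest to the right.

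The summed markers of other myeloid cells were higher in the midbrain of both experiments, as were Il1b, Il1r2 and Il1rn. The summed level of 14 neutrophil markers was 1591 and 1229 CPM in the midbrain and 902 and 935 CPM in the striatum of Exp 1. It was 6818 and 4362 CPM in the midbrain and 978 and 1054 CPM in the striatum of Exp 2. Csf3r gave 350 and 357 CPM of the midbrain sums and 451 and 601 CPM of the striatum sums of Exp 1. In Exp 2 it gave 491 and 427 CPM in the midbrain and 411 and 470 CPM in the striatum. Csf3r was the 1 tested marker below 0 in the joint fit, at -0.26 (SE 0.16, adjusted p = 0.491, limma). Of the 13 tested, 6 were called higher in the joint fit, against 1.06% of all genes called in either direction. The median log2 fold change was 1.82, against 0.044 for all genes. The defining markers S100a8, S100a9, Retnlg and Ly6g were above 0 in all 8 libraries. Midbrain library 1 of Exp 2, which had the highest Il1b, Il1rn and Il1r2, also had the highest S100a8 (1116 CPM) and S100a9 (3898 CPM). Midbrain library 3 was the higher of the pair for other markers of the list, among them Ly6g (12.95 against 6.97 CPM) and Ngp (786 against 123 CPM), as well as Camp, Ltf and Lcn2.

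Monocyte markers summed to 561 and 437 CPM in the midbrain and 203 and 221 CPM in the striatum of Exp 1. In Exp 2 they summed to 3296 and 958 CPM in the midbrain and 340 and 197 CPM in the striatum. Of the 12, 5 were called higher in the joint fit, against 1.06% of all genes called. Border macrophage markers summed to 2257 and 1869 against 956 and 1296 CPM in Exp 1. In Exp 2 they summed to 2301 and 2957 against 684 and 602 CPM, and 6 of 10 tested were called higher in the joint fit. Midbrain library 3 was the higher of its pair for this sum, while midbrain library 1 was for Il1b, Il1r2 and Il1rn. Stab1 gave 421 and 510 CPM of the striatum sums of Exp 1 and 365 and 307 CPM of those of Exp 2. Its joint log2 fold change was 0.19 (SE 0.15, adjusted p = 0.591, limma). T and NK cell markers summed to 100.5 and 89.6 against 26.8 and 45.3 CPM in Exp 1 and to 273 and 148 against 50.04 and 11.997 CPM in Exp 2. Of 7 tested 1 was called in the joint fit, which called 1.06% of all genes, and Cd3e was at 0 in 5 of the 8 libraries. Dendritic cell markers summed to 147 and 125 against 93.8 and 104 CPM in Exp 1. In Exp 2 the sums were 141 and 150 against 88.5 and 75.4 CPM. In the joint fit 6 of 7 tested were above 0, with a median log2 fold change of 1.62 against 0.044 for all genes. There limma and edgeR called 0 of 7 (4 at an unadjusted p under 0.05 with each, as had 14.6% of all genes by limma) and DESeq2 called 3. Exp 2 called 2 of 6 higher in the midbrain (limma), against 2.88% of all genes. The 2 passed the filter there through their midbrain libraries alone. Of the markers of B cells, astrocytes, oligodendrocytes, neurons and endothelial cells, limma and edgeR called 0 in the joint fit. DESeq2 called 1 there, an astrocyte marker, while 1 astrocyte and 1 endothelial marker had an unadjusted p under 0.05 with each tool. In Exp 2 limma called 1 of 6 astrocyte markers, lower in the midbrain, against 3.47% of all genes. The part of all these cell types in the regional differences of Il1b, Il1r2, Il1rn and Nlrp3 was not tested.

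**Figure D5:**
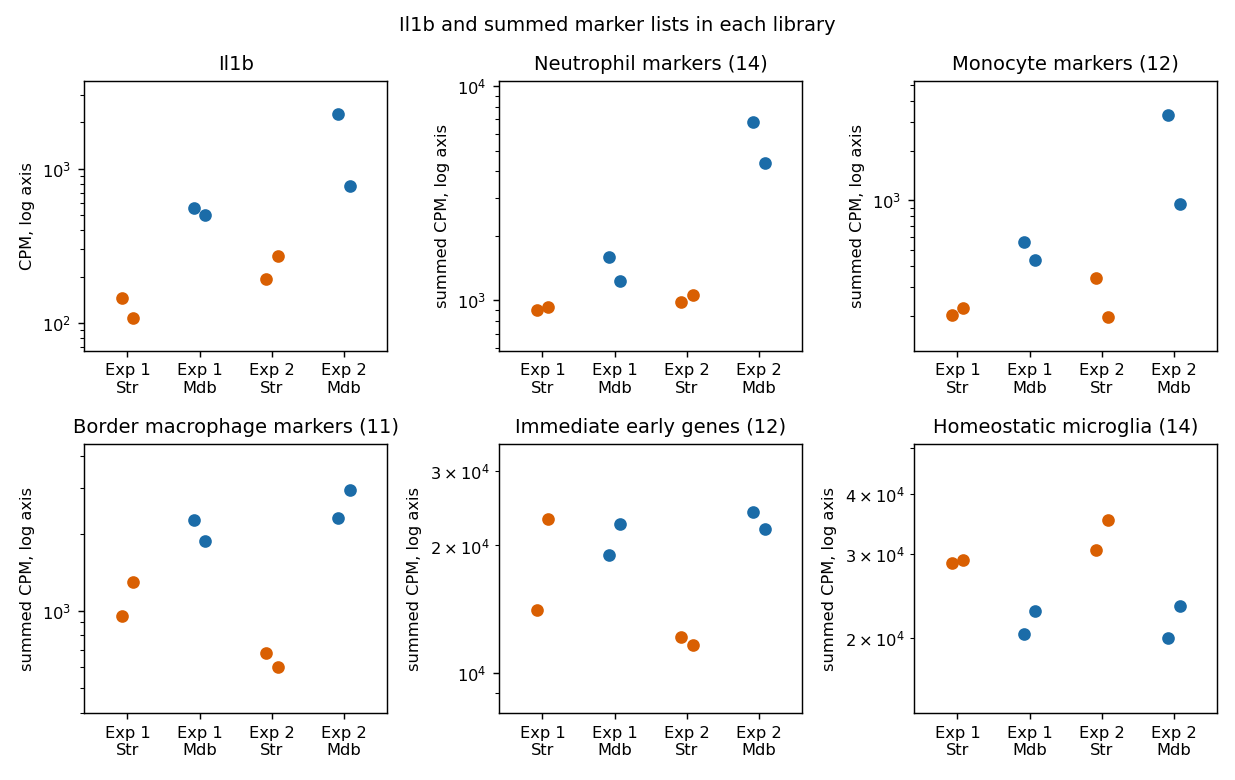
Level of Il1b (CPM) and summed CPM of 5 marker lists in each library (log axes; Str orange, Mdb blue). Il1b, neutrophil, monocyte and border macrophage markers are higher in each midbrain library than in the striatum libraries of its experiment, microglial markers are lower, and immediate early genes overlap between regions in Exp 1.

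The members were also compared by how their levels moved across the 8 libraries, with each experiment centred on its mean. These correlations are descriptions: the libraries fall into 2 regions and 2 experiments, and several genes have few counts. Pearson's r was 0.96 between Il1b and Il1r2, 0.92 between Il1b and Nlrp3, and 0.92 between Il1r2 and Nlrp3. It was -0.92 between Il1b and Il18, 0.88 between Il18 and Pycard, -0.83 between Casp1 and Pycard, and 0.16 between Il1b and Il1a. Il1b, Il1r2 and Nlrp3 were thus high in the same libraries, and Il18 was low in them.

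Among the 14053 genes of the joint fit, those most like Il1b were Btla (r = 0.99), an inhibitory receptor of lymphocytes and myeloid cells, Emb (0.99), the monocyte chemokine Ccl12 (0.99), Nxpe5 (0.98) and St8sia6 (0.98). Il1r2 was closest to Ifi207 (0.99), D16Ertd472e (0.99) and Setdb2 (0.99), and Nlrp3 to Gm11688 (0.99), Thap6 (0.98) and Cd83 (0.98), an activation marker of antigen-presenting cells. Il18 was closest to Ctsl (0.99), a lysosomal protease, Selenos (0.98) and the microglial marker Tmem119 (0.98). Il1a was closest to Paics (0.96), Mindy4 (0.95) and Ms4a6d (0.94), and Pycard to Naa35 (0.97), Rpusd4 (0.97) and Tmem268 (0.97). Casp1 was closest to Tspyl1 (0.98), Eps15 (0.98) and Cul3 (0.97). The genes closest to Il1rap were A530041M06Rik (1.00), E330009J07Rik (0.99) and Gm49138 (0.98), at 4 to 37 Il1rap counts per library.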

How the data were processed

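Raw exonic read counts per gene, not normalized, were deposited for each library. The authors had made them with STAR 2.5.3a (GRCm38) and with featureCounts 1.6.0 on Gencode M17, ignoring strand (versions from the submitters' processing notes). Symbols were matched to 53620 of the 53715 identifiers. The genes, lists and tests were chosen with earlier results of these data known. Counts were normalized with TMM (edgeR 4.0.16) and fitted with voom and limma 3.58.1 in R 4.3.3, as in the study's methods. A gene was left out of a fit if over 50% of its libraries had under 6 counts. Genes were called at an unadjusted two-sided p under 0.01 within an experiment and at a Benjamini-Hochberg adjusted p under 0.05 in the joint fit of 8 libraries, with experiment as a covariate. Positive log2 fold changes mean higher in the midbrain. The total counts per library ranged from 575709 to 8463782, so 3 counts equal 5.21 to 0.354 CPM of raw library size. Replicates of each group differed beyond sampling noise (chi-square per degree of freedom 6.18 to 26.1). The procedure was tested on simulated data.

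All 9 members are named. From the pathway lists, genes called in a fit are named and, where a list had fewer than 2 of these, its 2 tested genes with the largest change in the joint fit. Il36a, Il36b, Il36rn, Il1f10, Il36g, Il6, Icam1 and the neutrophil markers Ngp, Camp, Ltf and Lcn2 were named after their values were seen. Likeness is Pearson's r of log2 CPM (prior count 2), with the 5 closest genes for Il1b and the 3 closest for the others. Ratios had 0.5 added to each count. The alternatives tried were DESeq2 1.42.0, the quasi-likelihood test of edgeR, scaling to library size, no filter, a minimum of 10 counts per library, a block for the replicate number, sample quality weights, counts thinned to the smallest library, both placements of the 2 libraries of unsettled region, and leaving out each library. The Il1b to Il1a ratio and the refits of the induced genes in Exp 2 and Exp 1 were added after seeing the data.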

Additional observations from a re-analysis of the deposited data

Results flagged for a closer look

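The 2 libraries whose title and file name disagree on the region entered no comparison, and 4 of their values lay above every assigned library of Exp 2 (CPM normalized over 10 libraries). Il1a stood at 199 CPM in the library titled Mdb 2, from 312 counts, against at most 170 CPM in the assigned libraries. Casp1 stood at 24.2 CPM in the same library, against at most 14.9 CPM. Il1rap stood at 8.28 CPM in the library titled Mdb 2 and at 17.1 CPM in the library titled Str 2, against at most 6.99 CPM.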

How the results depend on the processing

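Exp 1 had 2 members called: requiring at least 10 counts in every library left 1 (Il1b), and leaving out each library gave 1 to 6. The 6 came without striatum library 1, where 2445 of 14571 genes were called, the lone striatum sample being assumed to vary like the midbrain group. Exp 2 had 3 called, 0 with the libraries of unsettled region placed by title and 2 to 3 with each library left out. The joint fit had 2 called, 1 with at least 10 counts in every library, 1 with thinned counts, 0 by title and 0 to 2 with each library left out. For the pathway lists the joint fit called 1 gene, against 0 with edgeR, 8 with DESeq2, 4 without the filter, 0 with at least 10 counts, 7 with sample quality weights, 5 with thinned counts, 0 by title, 4 by file name and 0 to 5 with each library left out; the cause was not tested. Placement by file name also took the Il1b to Il1r2 ratio to -0.78 (p = 0.0333, exact permutation), with more libraries in the test. It took the Il1b to Il1a ratio to 2.09 (p = 0.0167, exact permutation), a description because that pair was picked after its values were seen. By title both ratios kept their direction and neither had a p under 0.05 (exact permutation). Members whose regional change differed between the experiments numbered 0 in all 18 alternatives. The main fit of that test called 0 of all 14053 genes, so its count is not particular to the members.

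Directions reversed only for members that were not called. Il1rap reversed in Exp 1 with thinned counts (-0.0022), in Exp 2 by title (-0.72) and in the joint fit with quality weights (-0.037) and by title (-0.25). With each library left out it ranged from -0.37 to 0.71 in Exp 1, -0.46 to 0.39 in Exp 2 and -0.15 to 0.47 in the joint fit. Il1a reversed in Exp 2 without the filter (0.046), with at least 10 counts (0.0012) and by title (0.17), and with each library left out ranged from -0.12 to 1.04 in Exp 1 and -1.01 to 0.50 in Exp 2. Casp1 reversed in Exp 2 by file name (-0.23).

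Samples with the same replicate number did not deviate together (correlation -0.034 in Exp 1 and 0.078 in Exp 2, 2 pairs each). In fits with the replicate block the pathway count was 4 and Il1rap in Exp 2 was -0.016. The members called there were 2 in Exp 1, 4 in Exp 2 (adding Il1rn, as did edgeR and DESeq2) and 2 in the joint fit. Il1rn passed the filter of Exp 2 through its midbrain libraries alone, so its added call is a description. Over the whole table the block called 988 genes in Exp 2 against 468, and 308 in the joint fit against 149, which was 237 with edgeR, 554 with DESeq2, 412 with quality weights and 277 without the filter. In Exp 1 the count of 395 genes became 822 without the filter. With at least 10 counts in every library 204 genes were called in Exp 2 and 57 in the joint fit, and thinned counts gave 283 in Exp 2. With both libraries of unsettled region placed by title, 132 genes were called in Exp 2. In the joint fit placed that way limma called 0 (871 at an unadjusted p under 0.05), edgeR 0 and DESeq2 11, the last 2 tools being added after seeing the data, against 440 by file name. Depth limits Il1rn and Il1r2, with 1 to 12 counts in the striatum libraries.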

Other observations

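The remaining values of the 2 libraries of unsettled region are given without a region. The library titled Mdb 2 held 1584013 counts and the library titled Str 2 held 5194739. Il1b stood at 304 CPM in the first and 816 CPM in the second, and Il1r2 at 6.37 and 33.5 CPM. Il1rn gave 2 and 17 counts (1.27 and 3.23 CPM). Il18 stood at 79.6 and 85.0 CPM, Nlrp3 at 109 and 145 CPM and Pycard at 553 and 431 CPM. Il1a stood at 115 CPM and Casp1 at 11.8 CPM in the library titled Str 2.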
